A study of Rattus norvegicus with 28 samples.

Results

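Cerebellin 1 (Cbln1) was followed as 1 gene, Ensembl ID ENSRNOG00000000010, of 15635 in a count table of 28 rat brain libraries. It was chosen by its measured counts, because its level was lower with H3.3Q5A than with H3.3WT in the nucleus accumbens (NAc) and higher in the medial prefrontal cortex (mPFC). Those 2 differences are therefore given below as descriptions without a test. The table holds no gene symbols, so the name Cbln1 was taken with the ID and could not be checked in it.

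All tissue came from young adult male Sprague-Dawley rats of 200 to 250 g which had access to cocaine for self-administration over 10 days under an extended schedule. Virus (lenti-pCDH, a lentivirus) was then injected into both sides of 1 of the regions. It carried the histone variant H3.3 either with glutamine 5 replaced by alanine (H3.3Q5A) or as the wild-type protein (H3.3WT). Cue-induced cocaine seeking was tested after 30 days of expression and forced abstinence. The 4 groups of 7 libraries were NAc H3.3Q5A, NAc H3.3WT, mPFC H3.3Q5A and mPFC H3.3WT. No group without virus or without cocaine is among these libraries. The promoter in the virus and the share of transduced cells are not given in the sources used here. Each title also bears P1 or P2, a mark that the labels leave unexplained. Each NAc group held 3 P1 and 4 P2 libraries, mPFC H3.3Q5A held 3 P1 and 4 P2, and mPFC H3.3WT held 4 P1 and 3 P2. The labelled regions could not be checked against named markers, because the IDs carry no symbols. Total counts ran from 15.4 to 51.7 M (megacounts) per library.

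Cerebellin 1 is a secreted protein of the C1q family that organises synapses. In the mouse cerebellum it is released by granule cells and bridges presynaptic neurexins and the postsynaptic glutamate receptor relative GluD2, which holds the parallel fibre synapse on the Purkinje cell together. Other cerebellins act at forebrain synapses, where the same neurexins and the related receptor GluD1 are found. What is counted here is the messenger RNA of cells lying in the dissected tissue, not protein delivered by axons from elsewhere. In bulk tissue, fewer Cbln1-expressing cells and less Cbln1 RNA per cell cannot be told apart.

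In NAc H3.3Q5A libraries Cbln1 was low in all 7. Its level, in CPM (counts scaled to the TMM-adjusted size of the library), was 0.592 in replicate 28, 1.94 in replicate 7, 2.34 in replicate 18, 2.51 in replicate 3, 3.82 in replicate 22, 4.51 in replicate 2 and 4.53 in replicate 19. In NAc H3.3WT libraries it was 1.38 CPM in replicate 21, 2.67 in replicate 17, 6.15 in replicate 20, 8.05 in replicate 23, 9.04 in replicate 14, 9.76 in replicate 8 and 17.3 in replicate 12. The groups overlapped: 6 of the 7 H3.3Q5A libraries lay within the H3.3WT range, while 5 of the 7 H3.3WT libraries lay above the highest H3.3Q5A library.

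In mPFC the libraries lay closer together. Cbln1 was at 8.998 CPM in replicate 37, 11.2 in replicate 4, 11.7 in replicate 14, 12.2 in replicate 34, 12.6 in replicate 2, 13.8 in replicate 5 and 19.05 in replicate 15 of mPFC H3.3Q5A. It was at 11.5 CPM in replicate 3, 13.4 in replicate 13, 13.7 in replicate 21, 14.3 in replicate 36, 17.6 in replicate 35, 18.8 in replicate 11 and 24.2 in replicate 6 of mPFC H3.3WT. The ranges of the 2 viruses overlapped, with 2 H3.3Q5A libraries below and 1 H3.3WT library above the range of the other group.

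**Figure D1:**
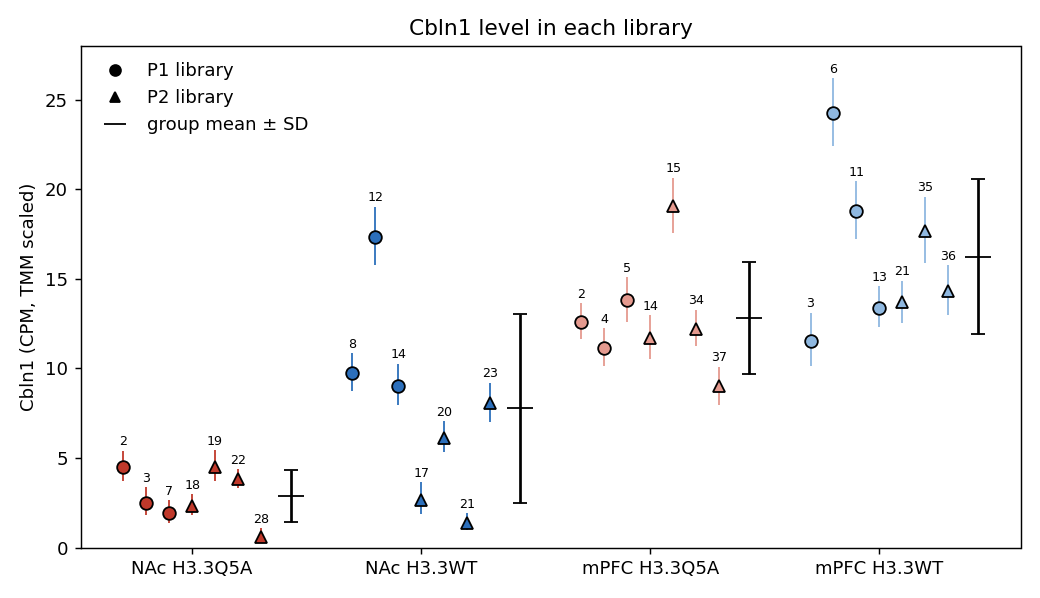
Cbln1 level in CPM (vertical axis) for each library, by group (horizontal axis). Circles are P1 and triangles P2 libraries with their replicate number and the exact 95% counting interval, and the black bars are group means ± SD. The 7 NAc H3.3Q5A libraries sit between 0.592 and 4.53 CPM and the NAc H3.3WT libraries spread from 1.38 to 17.3 CPM.

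The order of the group means was NAc H3.3Q5A at 2.89 ± 1.46 CPM (SD, n = 7), NAc H3.3WT at 7.77 ± 5.27, mPFC H3.3Q5A at 12.8 ± 3.13 and mPFC H3.3WT at 16.2 ± 4.34. The ranges of neighbouring groups in this order overlapped. No overlap was seen between NAc H3.3Q5A and mPFC H3.3Q5A, where all 7 NAc libraries lay below the lowest mPFC library. That regional difference is part of how Cbln1 was chosen, and the share of all genes without such overlap was not counted. Of NAc H3.3WT libraries, 6 of 7 lay below the lowest mPFC H3.3WT library, and replicate 12, at 17.3 CPM, exceeded 10 of all 14 mPFC libraries. Of all 14 NAc libraries, 3 lay within the range of the mPFC libraries, and these were the 3 P1 libraries of NAc H3.3WT. For replicates 14 and 8 this rested on mPFC H3.3Q5A replicate 37, at 8.998 CPM. The next lowest mPFC library stood at 11.2 CPM.

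Counting error was small beside these differences between libraries. The lowest library, NAc H3.3Q5A replicate 28, rested on 10 Cbln1 reads, which give an exact 95% Poisson interval of 0.284 to 1.09 CPM. The highest NAc library, H3.3WT replicate 12, rested on 447 reads and an interval of 15.8 to 19.02 CPM. Such intervals cover counting error only, since no molecular identifiers are named in the labels. Across the 14 NAc libraries the highest level was 29.3 times the lowest, against 2.69 times across the 14 mPFC libraries. The SD of log2 CPM was 0.98 in NAc H3.3Q5A and 1.22 in NAc H3.3WT. Among genes within 0.5 log2 CPM of the same mean level, the median SD was 0.31 over 1093 genes in NAc H3.3Q5A, where 2.74% of genes spread more widely than Cbln1. It was 0.28 over 1320 genes in NAc H3.3WT, where 1.06% did. Cbln1 was chosen by its values in these NAc libraries, so its place in spread there is a description. In mPFC the SD of Cbln1 was 0.33 with H3.3Q5A and 0.36 with H3.3WT, and 18.3% and 10.5% of genes of like level spread more widely.

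The virus difference in NAc, which chose the gene, corresponded to a mean level 2.69 times lower with H3.3Q5A. The fitted log2 fold change of H3.3Q5A over H3.3WT was −1.24 (SE 0.45), and 14 of 15315 genes had a lower one. The median over all genes was 0.01 and the median SE 0.12, so the SE of Cbln1 was above that of most genes. For this contrast edgeR called 0% of genes at an adjusted p under 0.05 and 7.84% at an unadjusted p under 0.05. The number called was 9 by DESeq2 and 4 by limma voom with quality weights per sample. The fold change was −1.05 without NAc H3.3WT replicate 12 and −1.45 without NAc H3.3WT replicate 21, the extremes over 14 left-out libraries.

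The values were also compared within each mark. Among P1 libraries Cbln1 averaged 2.99 ± 1.35 CPM in NAc H3.3Q5A (SD, n = 3) and 12.04 ± 4.595 CPM in NAc H3.3WT (SD, n = 3). Among P2 libraries it averaged 2.82 ± 1.74 CPM in NAc H3.3Q5A (SD, n = 4) and 4.56 ± 3.07 CPM in NAc H3.3WT (SD, n = 4). All 7 NAc H3.3Q5A libraries lay below every P1 library of NAc H3.3WT, whereas 6 of them lay within the range of the P2 libraries of that group. These counts come from the values that chose the gene, and the share of all genes separated in this way was not counted. Fitted within a mark, the log2 fold change was −1.99 (SE 0.38) among P1 and −0.68 (SE 0.62) among P2 libraries. The difference between the marks in this effect was 1.32 on the log2 scale (SE 0.85), a description without a test because it is built from the contrast that chose the gene, and it was added after the values had been seen.

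In mPFC the virus comparison was not used to choose the gene and was tested. Cbln1 averaged 12.8 CPM with H3.3Q5A and 16.2 CPM with H3.3WT, as given above, and 6 of the 7 H3.3Q5A libraries lay below the H3.3WT mean. The log2 fold change was −0.32 (SE 0.18, 95% confidence interval −0.71 to 0.06), and it did not pass the test (edgeR adjusted p = 0.629). The interval runs from a level 0.611 times that of H3.3WT to 1.04 times. Of 15485 genes tested in mPFC, edgeR called 0% at an adjusted p under 0.05 and 7.89%, or 1221 genes, at an unadjusted p under 0.05, while 8 passed in DESeq2 and 0 in limma voom with quality weights per sample. Within P1 the log2 fold change was −0.44 (SE 0.24) and within P2 −0.21 (SE 0.24). Replicate 34 of mPFC H3.3Q5A and replicate 11 of mPFC H3.3WT carried the most NAc-typical RNA of their groups, and without both the value was −0.29 (SE 0.20, edgeR adjusted p = 0.77). Without mPFC H3.3WT replicate 6 it was −0.22.

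**Figure D2:**
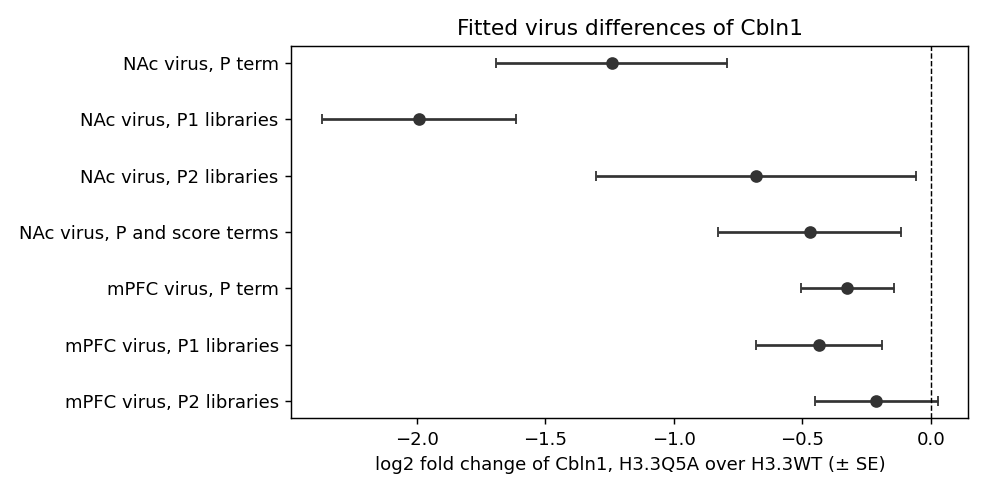
Fitted log2 fold change of Cbln1, H3.3Q5A over H3.3WT (horizontal axis), with bars of 1 SE, for NAc and mPFC with the P mark as a term, within P1 and within P2 libraries, and for NAc also with the cortical score as a term. The values run from −1.99 in NAc P1 libraries to −0.21 in mPFC P2 libraries. They are not independent, because the fits share libraries, and the NAc values come from the contrast that chose the gene.

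The difference of the NAc effect and the mPFC effect contains the contrast that chose the gene and is a description. It was −1.05 on the log2 scale (SE 0.50), and 99 of 15635 genes had a lower value. It was −0.77 without NAc H3.3WT replicate 12.

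The mark by itself did not pass the test for Cbln1 in either region. In NAc the log2 fold change of P2 over P1 was −0.77 (SE 0.45, 95% confidence interval −1.73 to 0.18, edgeR adjusted p = 0.999). In mPFC it was −0.06 (SE 0.18, 95% confidence interval −0.45 to 0.33, edgeR adjusted p = 0.958). Between the marks edgeR called 0% of genes in either region. The share at an unadjusted p under 0.05 was 4.45% in NAc and 6.15% in mPFC. The number called by DESeq2 was 1 for NAc and 37 for mPFC.

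Cbln1 was lower in NAc than in mPFC under both viruses, which is part of how it was chosen. The log2 fold change of NAc over mPFC was −2.12 (SE 0.37) with H3.3Q5A and −1.07 (SE 0.35) with H3.3WT. Over both viruses it was −1.59 (SE 0.25), a level 3.02 times lower in NAc. A log2 fold change of −1 or less with an edgeR adjusted p under 0.05 was reached by 7.81% of genes with H3.3Q5A and 6.45% with H3.3WT. With H3.3WT the value was −1.35 without NAc H3.3WT replicate 12 and −0.89 without NAc H3.3WT replicate 21, the extremes over left-out libraries.

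A cortical score was formed for each library to set beside Cbln1, from 273 genes that were much higher in mPFC (edgeR adjusted p under 0.05, log2 fold change of NAc over mPFC of −2 or less over both viruses). These make up 1.75% of the 15635 genes, are called mPFC-high genes here, and do not include Cbln1, whose regional fold falls short of that limit. The score is their mean log2 CPM. Their summed CPM was also expressed as a percentage of its mean over the 14 mPFC libraries, and is called the cortical level. It is not a share of cortical tissue, because accumbens cells may express these genes too.

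The cortical level of NAc H3.3Q5A libraries was 9.61% in replicate 22, 10.6% in replicate 18, 11.04% in replicate 7, 12.5% in replicate 3, 13.8% in replicate 28, 16.5% in replicate 2 and 25.4% in replicate 19. In NAc H3.3WT libraries it was 9.75% in replicate 21, 12.4% in replicate 17, 19.1% in replicate 14, 19.7% in replicate 20, 25.7% in replicate 23, 29.3% in replicate 8 and 42.9% in replicate 12. Replicate 12 thus held both the highest cortical level and the highest Cbln1 level of NAc, and replicate 21 both the lowest cortical level and the lowest Cbln1 level of its group. The cortical score averaged 0.38 ± 0.35 log2 CPM in NAc H3.3Q5A and 0.78 ± 0.53 in NAc H3.3WT (SD, n = 7 each), a difference of −0.40 that missed the threshold (two-sided exact permutation test over 3432 divisions, p = 0.126, adjusted p = 0.252 over 2 regions). The difference was −0.21 when mPFC-high genes were taken at a log2 fold of 1 (exact permutation p = 0.131) and −0.60 with the log2 of summed CPM (exact permutation p = 0.0932), and neither passed. Restricted to P1, the score difference was −0.78, with an exact permutation p = 0.1, which 3 against 3 libraries cannot go below. Restricted to P2 it was −0.11 (exact permutation p = 0.886). In mPFC the score averaged 3.23 ± 0.19 with H3.3Q5A and 3.24 ± 0.16 with H3.3WT (SD, n = 7 each, exact p = 0.925). With the log2 of summed CPM the mPFC difference was −0.12 (exact permutation p = 0.107), which did not pass either.

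Within NAc H3.3WT, libraries with a higher cortical score had more Cbln1. Cbln1 was chosen partly for being higher in mPFC, a trait it shares with the genes of the score. The permutation tests of this relation do not allow for that choice. Pearson's r between the score and log2 CPM of Cbln1 was 0.944 (exact permutation test over 5040 pairings, p = 0.00179, adjusted p = 0.0165) and Spearman's rho 0.893 (exact p = 0.0123, adjusted p = 0.0431), over 7 libraries and adjusted over 14 tests of 7 relations. Without the 2 libraries farthest from the median score r was 0.851 over 5 libraries (exact p = 0.075, adjusted p = 0.22). With so few libraries, missing the threshold says little. The adjusted p was 0.0511 without replicate 12, 0.0875 without replicate 17 and 0.13 without replicate 21, with r from 0.917 to 0.931.

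Within NAc H3.3Q5A the relation did not pass the test. Pearson's r was 0.458 (exact permutation p = 0.263, adjusted p = 0.368) and Spearman's rho 0.393 (exact p = 0.396, adjusted p = 0.504) over 7 libraries. Without the 2 libraries farthest from the median score r was −0.783 (exact p = 0.0917, n = 5), so the positive value rested on those 2. Replicate 28, with the lowest Cbln1 at 0.592 CPM, had a cortical level of 13.8%, near the middle of its group, and without it r was 0.715. Replicate 22 had the lowest cortical level, 9.61%, but Cbln1 at 3.82 CPM, the third highest of the group. Whether the relation differs between the viruses was not tested.

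Over all 14 NAc libraries, with the mean of each virus removed so that the virus difference plays no part, r was 0.772 (100000 permutations within virus, p = 0.00353, adjusted p = 0.0165) and rho 0.758 (permutation p = 0.00313, adjusted p = 0.0165). Without the 2 farthest libraries r was 0.677 (permutation p = 0.0326, n = 12). Within the 6 P1 libraries r was 0.866 (exact permutation p = 0.0278, adjusted p = 0.0778). That p is the lowest that 36 permutations allow. Within the 8 P2 libraries r was 0.689 (exact permutation p = 0.092, adjusted p = 0.184). The relation thus kept its direction within each mark without passing the adjusted threshold. In mPFC the relation did not pass the test: r was −0.231 over the 7 H3.3Q5A libraries (exact p = 0.538 by permutation) and −0.284 over the 7 H3.3WT libraries (exact p = 0.53 by permutation), each with an adjusted p of 0.579. Without the 2 farthest libraries r was −0.667 in mPFC H3.3Q5A and −0.719 in mPFC H3.3WT (n = 5 each, exact adjusted p = 0.28 for both). Among H3.3Q5A libraries r was −0.624 without replicate 34 and −0.0124 without replicate 37, and among H3.3WT libraries −0.743 without replicate 3 and −0.101 without replicate 13. None of these passed the adjusted threshold.

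**Figure D3:**
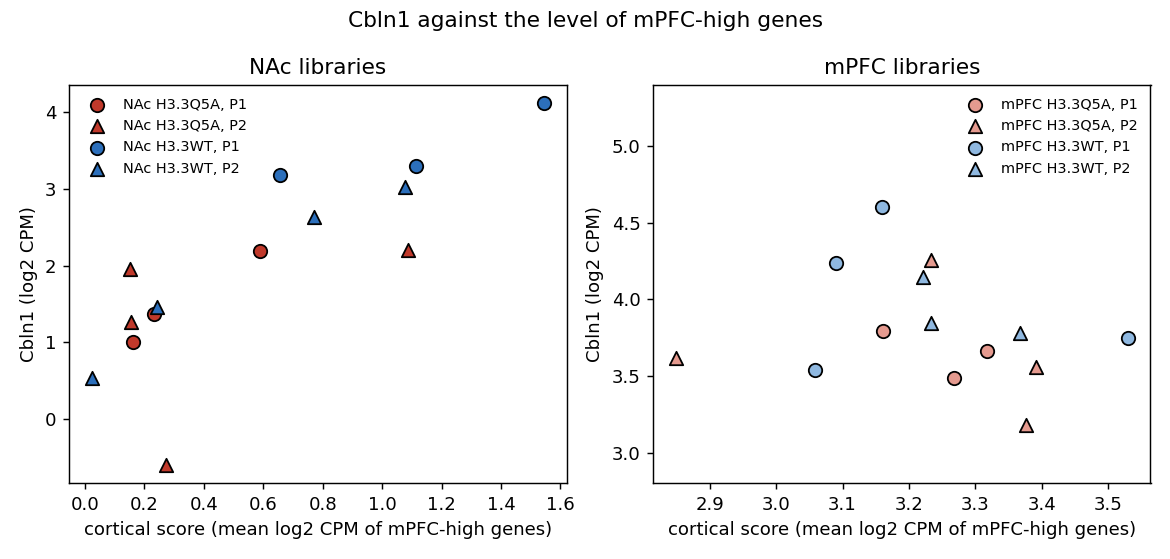
Cbln1 (log2 CPM, vertical axis) against the cortical score (mean log2 CPM of 273 mPFC-high genes, horizontal axis) for NAc libraries (left) and mPFC libraries (right), with circles for P1 and triangles for P2. The NAc H3.3WT libraries lie along a rising line (r = 0.944), the NAc H3.3Q5A libraries scatter at the lower end (r = 0.458), and the mPFC libraries show no rise.

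With the cortical score as a further term in the NAc fit, the log2 fold change of Cbln1 between the viruses was −0.47 (SE 0.36), where it was −1.24 (SE 0.45) without the term. This value is a description, as the contrast chose the gene. It was −0.28 without NAc H3.3WT replicate 14 and −0.72 without NAc H3.3WT replicate 21. The part that cortical RNA in the NAc libraries has in the virus difference was not tested beyond this value.

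Cbln1 did not scale with the cortical level in a fixed ratio. Expressed against its own mean over the mPFC libraries, Cbln1 stood at 119% in NAc H3.3WT replicate 12, where the cortical level was 42.9%. It stood at 62.3% in NAc H3.3WT replicate 14, where the cortical level was 19.1%. The Cbln1 percentage was above the cortical level in 12 of 14 NAc libraries. The exceptions were NAc H3.3Q5A replicate 28, at 4.08% for Cbln1 against 13.8%, and NAc H3.3WT replicate 21, at 9.54% against 9.75%. The ratio of the 2 percentages had a median of 1.38 in NAc H3.3Q5A (range 0.295 to 2.74), 2.15 in NAc H3.3WT (range 0.979 to 3.26), 0.914 in mPFC H3.3Q5A and 0.938 in mPFC H3.3WT. A ratio above 1 in NAc follows in part from the choice of the list, which requires a larger regional fold than Cbln1 has.

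**Figure D4:**
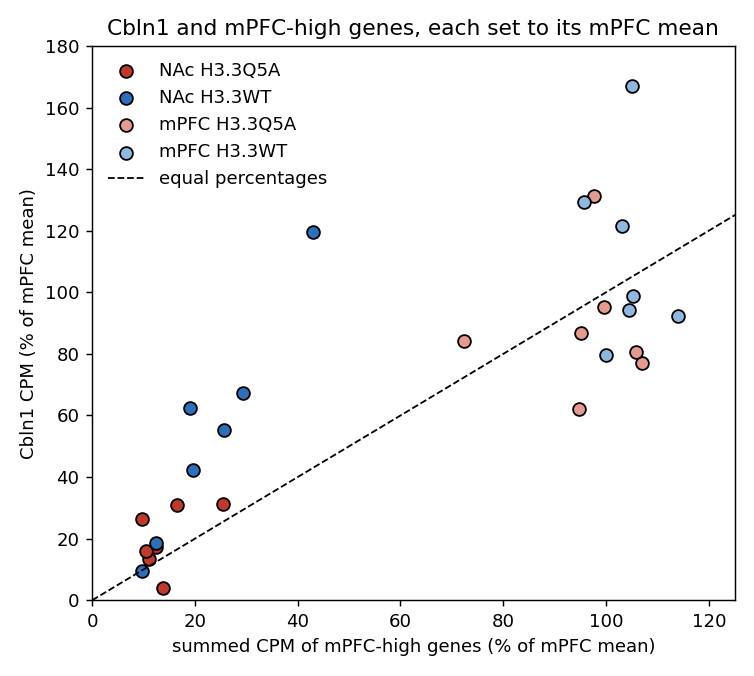
Cbln1 as a percentage of its mean over the mPFC libraries (vertical axis) against the summed CPM of mPFC-high genes as a percentage of its mPFC mean (horizontal axis), 1 point per library, with a dashed line where both are equal. Of 14 NAc libraries 12 lie above the line, and NAc H3.3WT replicate 12 reaches 119% for Cbln1 at a cortical level of 42.9%.

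The place of Cbln1 among the mPFC-high genes in the NAc virus contrast was taken from a fit without the filter on low counts, so that all 273 are in it. Of these, 230 had a log2 fold change below 0, with a median of −0.43 and quartiles at −0.77 and −0.11. Over all 15635 genes 48.6% were below 0 and the median was 0.00495. A lower value than that of Cbln1 was found for 9 of the 273. These counts are descriptions: genes that vary together across the same libraries are not independent, and the difference in the cortical score of the 2 viruses did not pass its test. In mPFC, fitted in the same way, 146 of the 273 were below 0, with a median of −0.02, and 15 had a lower value than Cbln1.

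Over all 14 NAc libraries Cbln1 followed the cortical score about as closely as the mPFC-high genes did themselves. Within NAc H3.3Q5A alone its r was 0.458, which did not pass the test. With virus means removed, each mPFC-high gene's correlation with the mean of the others had a median of 0.63 over 273 genes (quartiles 0.38 and 0.82), and 90 of them, 33%, exceeded the 0.77 of Cbln1. Over 14188 genes at a mean of at least 1 CPM in NAc the median correlation with the score was 0.01, and 1.84% exceeded that of Cbln1. The 273 genes were taken without that limit of 1 CPM, which 137 of them met. All points share the same 14 libraries, so these are descriptions.

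The genes that varied most like Cbln1 in NAc were mostly higher in mPFC, but not all of them. By Pearson correlation of log2 CPM over the 14 NAc libraries with virus means removed, 26 of the 100 nearest genes were mPFC-high, a class that makes up 0.966% of the 14188 genes compared. None of the 100 was NAc-high (the mirror class, 258 genes), and 63 had a log2 fold change of NAc over mPFC of −1 or less, where 5.17% of all compared genes did. Their correlations were 0.758 or more. The 2 nearest genes were in neither class. ENSRNOG00000060879 (r = 0.925) averaged 12.2 ± 1.84 CPM in NAc H3.3Q5A and 17.2 ± 3.65 CPM in NAc H3.3WT (SD, n = 7 each), and its regional log2 fold change of 0.82 made it higher in NAc than in mPFC, opposite to Cbln1. It was 1 of only 5 among the 100 nearest genes that were higher in NAc, where 51.7% of all compared genes were. ENSRNOG00000003616 (r = 0.902) averaged 22.3 ± 3.3 CPM in NAc H3.3Q5A and 26.2 ± 6.62 CPM in NAc H3.3WT.

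The most opposite patterns belonged to genes that were somewhat higher in NAc. ENSRNOG00000018666 (r = −0.841) averaged 183 ± 13.3 CPM in NAc H3.3Q5A and 176 ± 24.8 CPM in NAc H3.3WT. ENSRNOG00000021805 (r = −0.814) averaged 26.6 ± 2.48 CPM in NAc H3.3Q5A and 24.5 ± 2.73 CPM in NAc H3.3WT. Among the 137 mPFC-high genes in this comparison the median correlation with Cbln1 was 0.63, with 130 above 0, and among the 246 NAc-high genes it was −0.27, with 21 above 0. Over all genes compared it was 0.01, with 51.1% above 0.

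Over all 28 libraries, where the regional difference weighs in, the nearest genes were others. ENSRNOG00000048980 (r = 0.938) averaged 113 CPM in NAc H3.3Q5A, 163 in NAc H3.3WT, 255 in mPFC H3.3Q5A and 291 in mPFC H3.3WT. ENSRNOG00000008697 (r = 0.933), a mPFC-high gene, averaged 38.6 CPM in NAc H3.3Q5A, 94.2 in NAc H3.3WT, 239.8 in mPFC H3.3Q5A and 278 in mPFC H3.3WT. Both held the same order of the 4 groups as Cbln1, which follows largely from their being picked as nearest to it over these libraries. These correlations were taken over libraries of both regions, so they include the regional difference that chose Cbln1.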

How the data were processed

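RNA-seq counts were analysed for 28 libraries, 7 in each of 4 groups. Per the submitters' processing notes, HISAT2 2.1.0, featureCounts 2.0.1, DESeq2 1.6.3 and build rn6 were used, with no role given for each. The authors deposited raw counts of reads per Ensembl gene for 15635 genes, each reaching 10 counts in at least 14 libraries. The library kit does not mark strand, so reads of overlapping genes on opposite strands cannot be told apart.

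Cbln1 was fitted together with all genes in edgeR 4.0.16 (R 4.3.3) with TMM scaling, filterByExpr and quasi-likelihood F tests, with the P mark of the titles as an additive term. The threshold was a Benjamini-Hochberg adjusted p of 0.05. The SE is the log2 fold change over the square root of F. CPM were computed from the deposited counts with TMM factors over 28 libraries, and log2 CPM with a prior count of 2. DESeq2 1.42.0, limma 3.58.1, other scalings and left-out libraries were alternatives. The fit recovered seeded changes when tested on simulated data, where 200 genes drawn at random were seeded. Their recovery says little about Cbln1 in NAc. Its biological coefficient of variation between NAc libraries was 57.1%, against a common value of 19.3% over genes.

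The gene, the lists and the tests were chosen with earlier results of these data known. Partners of Cbln1 and cell type markers were listed as symbols, but 0 table IDs have an Ensembl match in the reference gene table (assembly GRCr8), so they and the virus transgenes are not analysed here. Genes most like Cbln1 were named by a rule, namely the 2 highest and 2 lowest correlations within NAc and the 2 highest over 28 libraries among genes with a mean of at least 1 CPM. All 28 libraries entered the main fits. Libraries of one group all differed beyond sampling noise, with the lowest chi-square per degree of freedom at 7.49. As the labels name no animal, p-values measure only the spread among libraries, which may be technical.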

Additional observations from a re-analysis of the deposited data

Results flagged for a closer look

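Of 20 combinations of a group and a measure checked for a library far from the rest, 6 stood out, where chance gives about 1 in 20. The log2 CPM of Cbln1 was −0.60 in NAc H3.3Q5A replicate 28, with the next lowest library of the group at 1.01. In mPFC H3.3Q5A replicate 34 the cortical score was 2.85 (next lowest 3.16), the cortical level 72.3% (next lowest 94.7%) and the mean log2 CPM of NAc-high genes 1.82 (next highest 0.94), while its Cbln1 level, 12.2 CPM, was the median of its group. The NAc-high mean was 1.25 log2 CPM in mPFC H3.3WT replicate 11 (next highest 0.94) and 4.55 in NAc H3.3Q5A replicate 3 (next highest 4.08). The part of these libraries in the Cbln1 results was not tested beyond the values given without them.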

How the results depend on the processing

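No paired analysis was possible, because the labels name no animal by which libraries could be paired. The groups compared also share fewer than 2 replicate numbers in their titles. The virus difference of Cbln1 in NAc was −1.99 to −0.68 over 7 other settings and −1.45 to −1.05 over 14 left-out libraries. The mPFC effect was −0.45 to −0.21 and −0.44 to −0.22, with edgeR, DESeq2 or limma adjusted p-values of 0.401 or more. The NAc mark effect was −0.95 to −0.52 and the mPFC mark effect −0.18 to 0.0485 over left-out libraries, and the mPFC value was above 0 without mPFC H3.3WT replicate 6 or mPFC H3.3Q5A replicate 37. The mPFC score difference, −0.01, was 0.0117 with mPFC-high genes at a log2 fold of 1, 0.0038 at 3, and −0.0388 to 0.0542 over left-out libraries. It moved most with the log2 of summed CPM, to −0.12 (exact permutation p = 0.107). In mPFC H3.3Q5A r was 0.0148 with the log2 of summed CPM. Without the 2 libraries farthest from the median score, added after seeing the data, r was −0.783 in NAc H3.3Q5A, 0.851 in NAc H3.3WT and 0.677 over NAc, each with an adjusted p of 0.22. Over left-out libraries r was 0.917 to 0.991 in NAc H3.3WT and 0.673 to 0.877 over NAc, both losing the adjusted call without NAc H3.3WT replicate 12, 17 or 21. Correlations without 1 of the 6 P1 libraries were not run. In mPFC r was −0.624 to −0.0124 with H3.3Q5A and −0.743 to −0.101 with H3.3WT over left-out libraries, none past the threshold. The NAc score difference was −0.60 to −0.21 over 4 other settings and −0.52 to −0.27 over left-out libraries, none past the adjusted threshold. The NAc library with the fewest Cbln1 reads held 10.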
